A study of Mus musculus with 32 samples.

Results

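The lysosomal proton pump module comprised 32 genes chosen by symbol among 55385 gene IDs: 20 subunits and accessory proteins of the vacuolar proton pump, 7 ion channels and exchanger components of the lysosome, 3 transcription factors of lysosomal genes and 2 lysosome-associated membrane proteins. All 32 were found by symbol, and 32 of 32 passed the filter on low counts. RNA came from EYFP-positive microglia sorted from cerebral cortex of adult C57BL/6 mice at a stab wound (injured) or at the matching site of the opposite, unwounded hemisphere (non-injured), on days 1, 4, 7 and 14. All groups, the non-injured ones included, came from mice heterozygous for Cx3cr1CreER, aged 8 to 10 weeks at tamoxifen (180 mg/kg a day for 5 days), which switched on the reporter. The recombinase is driven by the Cx3cr1 locus, which is also active in monocytes and border macrophages, and 1 copy of Cx3cr1 carries it. Each combination of day, sex and side held 2 deposited columns, 32 in all.

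The vacuolar proton pump acidifies lysosomes, endosomes and secretory vesicles. Its V1 sector in the cytosol splits ATP and turns a rotor, and its V0 sector in the membrane carries the protons across. Chloride exchange balances the charge, calcium-permeable channels of the TRPML and two-pore families release ions from the lumen, and the related factors TFEB, TFE3 and MITF bind a short promoter sequence (the CLEAR motif, TCACGTGA) in many lysosomal genes. Microglia and macrophages depend on this system to digest what they engulf. Most subunits are made in nearly all cells, while a few paralogs are restricted: Tcirg1 and Atp6v0d2 are best known from osteoclasts and macrophages, and Atp6v1g2 and Atp6v0e2 from brain, chiefly neurons.

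The series describes these columns as biological replicates, yet within a combination they were almost as alike as repeated counts of a single library (median chi-square per gene 0.475 to 0.639, against 0.455 for counting noise). They were summed to 16 libraries, which form 8 pairs, injured and non-injured, of the same day and sex, with 20864031 to 55378880 counts each. Each day, sex and side therefore had 1 library, the labels do not tie samples to animals, and p-values measure only the spread between these samples. The day 14 female libraries had the fewest genes detected (14720 in the injured and 14772 in the non-injured library, against 18718 to 40940 elsewhere). Mitochondrial RNA took 0.697% to 6.89% of counts in injured libraries and 1.16% to 7.55% in non-injured ones, apart from 25.7% in the day 4 male non-injured library. The 10 microglial markers summed to 10067 to 39734 CPM in injured and 10323 to 69562 CPM in non-injured libraries, so both sides held abundant microglial RNA. Of these markers 6 fell and 1 rose at the wound, while 8 of 10 monocyte markers and 6 of 8 neutrophil markers rose and 8 of 8 neuronal markers fell. Of 6 astrocyte markers 2 fell, of 8 vascular markers 5 fell, and of 8 oligodendrocyte markers 2 fell and 1 rose. Of 10 monocyte markers 1 fell, and of 9 lymphocyte markers 2 rose. Over all genes tested 7.76% were called higher and 7.96% lower. The monocyte markers summed to 66.2 to 358 CPM in injured and 26.1 to 134 CPM in non-injured libraries, and the neutrophil markers to 60.3 to 657 CPM in injured and 51.8 to 714 CPM in non-injured libraries. Most of the neutrophil sum was Csf3r, which was not called, at a mean of 229 CPM in injured and 303 CPM in non-injured libraries. Among those that rose, S100a8 averaged 36.9 against 1.10 CPM and Mmp8 46.5 against 0.937 CPM. Of 8 border macrophage markers 3 rose and 1 fell, and their sum was 91.6 to 3462 CPM in injured and 21.01 to 683 CPM in non-injured libraries. The part of these markers in the results was not tested, and in bulk samples fewer cells of a type cannot be told apart from less RNA per cell.

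The promoters of members that hold the full CLEAR motif are shown first, because the 3 transcription factors among the members are known to bind it. RefSeq windows (250 bases before to 50 after the start site, GRCm38.p6) were found for 25 of the 32 members. The palindrome TCACGTGA, which reads alike on both strands, was in a window of 5 of these 25 genes (20%), against 1.12% of all 27025 genes with a window. Its core CACGTG, contained in it, was in 8 of 25 (32%) against 8.09% of genes. The variant TCATGTGA, searched on both strands, was in 1 of 25 (4%), Atp6v0c, against 1.15%. These are counts of letters in a window, and no binding was measured. The members were picked as lysosomal genes, many of which are known to hold this motif, so the higher share does not bear on injury. The 5 promoters with TCACGTGA follow, with Lamp1, which holds 4 copies of the core. All are written on the strand of the gene, and capitals mark TCACGTGA or CACGTG.
Atp6v0d1 promoter (chr8:105566015-105566314, minus strand): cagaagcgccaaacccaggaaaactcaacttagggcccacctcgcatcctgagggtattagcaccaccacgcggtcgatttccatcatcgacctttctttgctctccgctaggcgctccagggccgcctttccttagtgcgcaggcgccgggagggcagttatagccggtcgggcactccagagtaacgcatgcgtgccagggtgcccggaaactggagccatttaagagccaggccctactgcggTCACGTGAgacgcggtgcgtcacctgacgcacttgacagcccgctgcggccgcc
Atp6v0e promoter (chr17:26676146-26676445, plus strand): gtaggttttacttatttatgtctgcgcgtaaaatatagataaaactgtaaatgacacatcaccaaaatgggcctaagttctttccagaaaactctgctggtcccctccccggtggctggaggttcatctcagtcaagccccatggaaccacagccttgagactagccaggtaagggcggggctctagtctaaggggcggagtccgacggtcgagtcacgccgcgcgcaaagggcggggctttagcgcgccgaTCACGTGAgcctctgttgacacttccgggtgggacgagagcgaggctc
Atp6v1a promoter (chr16:44139210-44139509, minus strand): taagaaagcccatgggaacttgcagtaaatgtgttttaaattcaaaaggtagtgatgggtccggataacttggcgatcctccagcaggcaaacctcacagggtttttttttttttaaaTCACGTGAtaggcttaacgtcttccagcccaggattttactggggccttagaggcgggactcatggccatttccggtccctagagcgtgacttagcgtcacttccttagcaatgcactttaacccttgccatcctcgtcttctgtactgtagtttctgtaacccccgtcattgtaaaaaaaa
Clcn7 promoter (chr17:25133141-25133440, plus strand): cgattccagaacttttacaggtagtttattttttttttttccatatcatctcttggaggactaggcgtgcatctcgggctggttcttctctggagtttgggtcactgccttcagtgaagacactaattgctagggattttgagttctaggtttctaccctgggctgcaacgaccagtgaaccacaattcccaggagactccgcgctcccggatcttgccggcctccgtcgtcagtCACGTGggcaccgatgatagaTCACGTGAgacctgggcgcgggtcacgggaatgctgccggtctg
Mcoln1 promoter (chr8:3500269-3500568, plus strand): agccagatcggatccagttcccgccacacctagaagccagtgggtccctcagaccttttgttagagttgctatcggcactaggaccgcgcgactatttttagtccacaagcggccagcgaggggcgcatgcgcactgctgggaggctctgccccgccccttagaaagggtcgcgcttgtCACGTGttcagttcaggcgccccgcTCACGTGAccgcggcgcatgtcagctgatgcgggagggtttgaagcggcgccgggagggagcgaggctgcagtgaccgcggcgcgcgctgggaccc
Lamp1 promoter (chr8:13158911-13159210, plus strand): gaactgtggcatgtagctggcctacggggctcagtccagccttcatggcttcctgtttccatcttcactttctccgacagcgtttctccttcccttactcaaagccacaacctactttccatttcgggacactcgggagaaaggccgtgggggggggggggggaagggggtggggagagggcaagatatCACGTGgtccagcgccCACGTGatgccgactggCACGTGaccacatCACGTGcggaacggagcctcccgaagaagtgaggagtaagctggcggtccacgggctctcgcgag
The motif began 46 bases before the start site in Mcoln1, 132 before it in Atp6v1a and 4 before it in Atp6v0d1, and at transcribed bases 7 and 3 in Clcn7 and Atp6v0e. Of these 5 genes, Atp6v0d1, Atp6v0e, Atp6v1a and Clcn7 rose at the wound over the 4 days, as did Lamp1, and Mcoln1 was not called. Other members rose without the motif in their window, and 20 of all 32 members rose. Whether the motif goes with the rise was not tested.

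Averaged over the 4 days, 20 of the 32 members rose at the wound, 2 fell and 10 were not called (edgeR quasi-likelihood test over 8 pairs, Benjamini-Hochberg adjusted p under 0.05). Across all 28597 genes tested 15.7% were called, 7.76% higher and 7.96% lower. At an unadjusted p under 0.05 the counts were 26 of 32 members and 28.6% of genes. The median log2 fold change, injured over non-injured, was 0.81 for the members and -0.32 for all genes. Among the 16 widely expressed pump subunits and accessory proteins, 12 rose and none fell, with a median of 0.91. Of the 4 restricted paralogs Atp6v0d2 rose, Atp6v1g2 fell and Tcirg1 and Atp6v0e2 were not called, with a median of -0.43. Injured libraries were higher in 8 of 8 pairs for 12 members, against 5.11% of all genes, and lower in 8 of 8 for Atp6v0a2 alone, against 4.07%.

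Those counts changed with the scale and as pairs were left out. On log2(TPM + 1), tested with limma, 7 members rose and 6 fell, against 1092 of 28597 genes called higher and 3279 called lower. The median of the 16 subunits was 0.34 and that of all genes was -0.17, and 5 of the 16 subunits rose and 2 fell. Calls were lost on that scale for Atp6v0b, Atp6v0c, Atp6v0d1, Atp6v1c1, Atp6v1d, Atp6ap1, Atp6ap2, Clcn7, Ostm1, Mcoln2, Mitf, Lamp1 and Lamp2, while 6 of the 7 that rose were called members of the pump and the other was Mcoln3. All 7 had smaller values on that scale, at 2.27 for Atp6v0d2, 2.17 for Mcoln3, 0.93 for Atp6v0e, 0.92 for Atp6v1a, 0.90 for Atp6v1g1, 0.75 for Atp6v1f and 0.60 for Atp6v1b2. DESeq2 did not call Atp6ap1 (adjusted p = 0.0514) or Mcoln2 (0.137), and edgeR with median-ratio scaling did not call these or Ostm1 (0.0643). Leaving out pairs in turn, the called count was 9 (day 1 female left out), 12 (day 1 male, day 7 female or day 7 male) and 13 (day 14 male). Atp6v0d2, Atp6v0e, Atp6v1a, Atp6v1f and Atp6v1g1 rose in all 16 alternatives run.

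**Figure D1:**
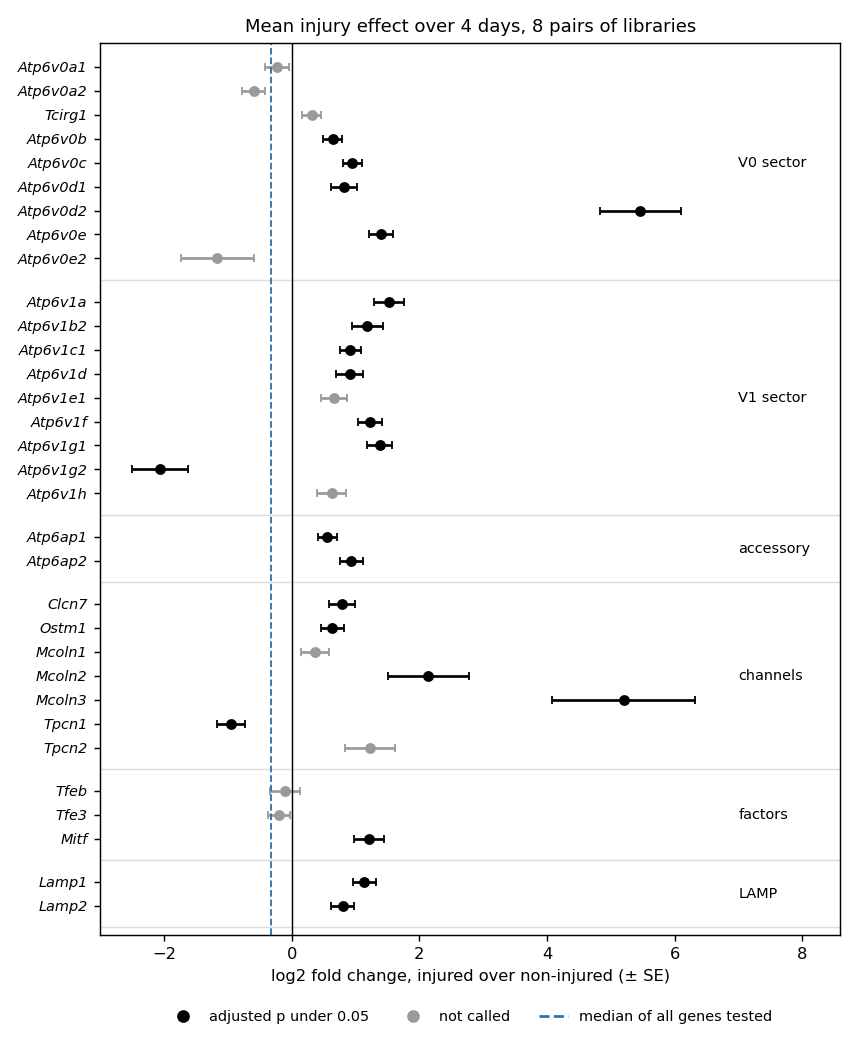
Log2 fold change of each member, injured over non-injured, as the mean of 4 days with its standard error, grouped by role. Black points passed the test and grey points did not. Most subunits lie between 0.56 and 1.53, right of the dashed median of all genes at -0.32, while Atp6v0d2 (5.47) and Mcoln3 (5.20) lie far to the right and Atp6v1g2 (-2.06) to the left.

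In the V1 sector 6 of 9 members rose and Atp6v1g2, described with the restricted paralogs, fell. Atp6v1a, the catalytic subunit, ran from 120 to 377 CPM (median 232) in injured libraries and from 57.9 to 122 CPM (median 76.9) in non-injured libraries. In 7 of the 8 injured libraries it exceeded every non-injured one, the widest separation among the members. It was 2.88-fold higher at the wound (log2 1.53, SE 0.23, adjusted p = 0.00285) and higher in 8 of 8 pairs. Its partner in the catalytic ring, Atp6v1b2, had 197 to 814 CPM (median 580) in injured and 104 to 370 CPM (median 182) in non-injured libraries. The groups overlapped, since the day 4 male pair had 325 CPM on the injured and 365 CPM on the non-injured side, and the other 7 pairs were higher at the wound (log2 1.18, SE 0.24, adjusted p = 0.0113). It was not called without the day 1 female pair (adjusted p = 0.0979) or the day 7 female pair (0.0675).

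The rotor subunits Atp6v1d and Atp6v1f both rose. Atp6v1f had 74.5 to 338 CPM (median 212) in injured and 36.9 to 138 CPM (median 92.8) in non-injured libraries. Of its injured libraries 6 lay above every non-injured one (log2 1.23, SE 0.19, adjusted p = 0.0028). Atp6v1d had 65.4 to 287 CPM (median 180) in injured and 33.8 to 301 CPM (median 72.2) in non-injured libraries, the top value being the day 14 female non-injured library. The mean difference was log2 0.91 (SE 0.21, adjusted p = 0.0187), and it was not called without either day 1 pair, either day 7 pair or the day 14 male pair (adjusted p 0.0548 to 0.127).

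Among the stalk subunits that hold the stator in place, Atp6v1g1 had 119 to 734 CPM (median 360) in injured and 49.3 to 482 CPM (median 99.6) in non-injured libraries. The highest value on each side was the day 14 female library, and all 8 pairs were higher at the wound (log2 1.38, SE 0.20, adjusted p = 0.00209). Atp6v1c1, which joins the stalks to V0, had 122 to 722 CPM (median 351) in injured and 57.7 to 438 CPM (median 176) in non-injured libraries (log2 0.92, SE 0.17, adjusted p = 0.00671; 0.0561 without the day 1 female pair). Atp6v1e1 (64.8 to 210 CPM injured, 47.6 to 179 CPM non-injured) was higher in 8 of 8 pairs yet missed the threshold (log2 0.67, SE 0.21, adjusted p = 0.0576). The regulatory subunit Atp6v1h was not called either (log2 0.63, SE 0.23, adjusted p = 0.105). Exons of both overlap another gene on the opposite strand, Slc25a18 and Rgs20, and these libraries do not keep the strand.

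In the V0 sector 5 of 9 members rose. Atp6v0c, the main proteolipid of the proton-carrying ring, had 438 to 1818 CPM (median 1061) in injured and 260 to 780 CPM (median 486) in non-injured libraries. It was higher in 8 of 8 pairs (log2 0.95, SE 0.15, adjusted p = 0.00352), with 5 injured libraries above every non-injured one. Its 2 processed pseudogenes averaged 0.0721 and 0.361 CPM. Atp6v0b, the second proteolipid, had 181 to 720 CPM (median 441) in injured and 159 to 507 CPM (median 213) in non-injured libraries and rose by 0.64 (SE 0.15, adjusted p = 0.0204), a call that was lost when any pair other than those of day 4 was left out (adjusted p 0.0551 to 0.116). An antisense gene overlaps it.

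Atp6v0e, a small membrane subunit, had 94.9 to 475 CPM (median 293) in injured and 60.7 to 207 CPM (median 70.9) in non-injured libraries. All 8 pairs were higher at the wound, with 6 injured libraries above every non-injured one (log2 1.40, SE 0.19, adjusted p = 0.00161). Atp6v0d1, the usual link between rotor and ring, had 105 to 328 CPM (median 221) in injured and 87.3 to 161 CPM (median 110) in non-injured libraries. Each of the 8 pairs was higher at the wound (log2 0.82, SE 0.21, adjusted p = 0.0259), though the day 1 male pair differed little, at 105 and 95.2 CPM, and the call was lost when any pair other than those of day 4 was left out (adjusted p 0.0685 to 0.158).

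The 3 paralogs of the a subunit, which directs the pump to different organelles, were not called. Tcirg1 had 43.6 to 762 CPM (median 366) in injured and 38.7 to 629 CPM (median 311) in non-injured libraries. The groups overlapped nearly throughout, both lowest values being day 14 female libraries, and 6 of 8 pairs were higher at the wound (log2 0.31, SE 0.14, adjusted p = 0.195; -0.34 on log2 TPM). Atp6v0a1 had a median of 152 CPM in injured and 215 CPM in non-injured libraries (log2 -0.23, SE 0.19, adjusted p = 0.507). Atp6v0a2 was lower in 8 of 8 pairs, with medians of 141 CPM in injured and 220 CPM in non-injured libraries (log2 -0.59, SE 0.18, adjusted p = 0.0554), and an antisense gene overlaps it. On log2 TPM both were called lower, at -0.64 for Atp6v0a1 and -1.19 for Atp6v0a2. The Atp6v0a2 value was also past the threshold with median-ratio scaling in edgeR (-0.74, adjusted p = 0.0092), in DESeq2 (-0.74, adjusted p = 8.5e-05), with either deposited column of each combination alone (adjusted p = 0.0245 and 0.0173), with the columns kept apart and a replicate block (5.13e-09) and when the female pair of day 4 was dropped (0.0263). It was not called when any other single pair was dropped (adjusted p 0.0797 to 0.233), with no filter on low counts (0.184) or when the male pairs of days 4, 7 and 14 were dropped together (0.219).

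**Figure D2:**
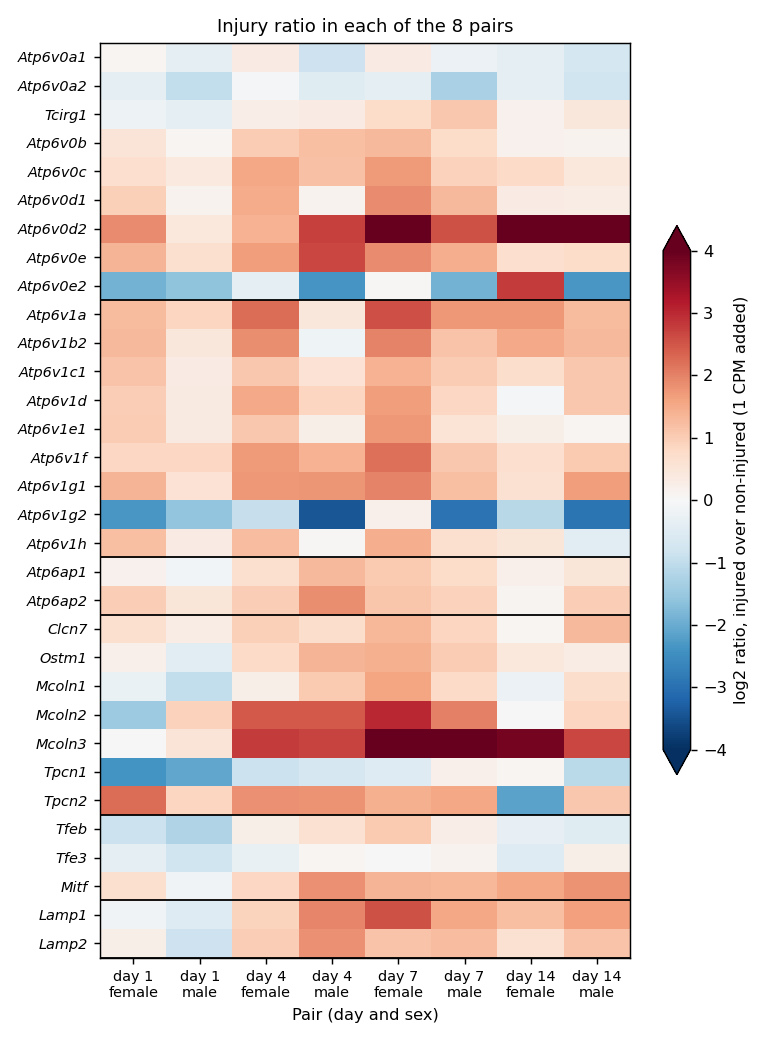
Log2 ratio of injured over non-injured CPM (1 CPM added) for each member in the 8 day-by-sex pairs, red where the injured library was higher and blue where the non-injured one was. Rows of subunits such as Atp6v0c, Atp6v0e and Atp6v1a are red in all 8 pairs, Atp6v0a2 is blue in 8 of 8, and Lamp1 is blue on day 1 and red on days 4, 7 and 14.

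Of the d subunit paralogs, Atp6v0d2 had the larger fold and the lower level. Atp6v0d2, an alternative to Atp6v0d1 known from osteoclasts and some macrophages, rose at the wound and had its highest levels there on day 14. On day 1 it had 2.82 CPM in the female and 0.763 CPM in the male injured library, against 0.0269 and 0.310 CPM in the non-injured ones. On day 4 the values were 1.81 and 5.65 CPM in injured libraries, against 0.0615 and 0 CPM in non-injured libraries. On day 7 they were 42.9 and 46.6 CPM in injured libraries, against 0.525 and 7.14 CPM in non-injured libraries. By day 14 they were 98.6 and 97.7 CPM in injured libraries, against 0.0411 and 0.450 CPM in non-injured libraries, and the sexes lay close together on the injured side on days 7 and 14. Every pair was higher at the wound, and all 4 injured libraries of days 7 and 14 exceeded every non-injured library. The fitted mean effect was log2 5.47 (SE 0.64, adjusted p = 0.000419), with 0 to 18 counts in 7 of 8 non-injured libraries and 314 in the day 7 male one, so the fold depends on a few reads. Dropping single pairs gave 4.99 to 6.52, with 6.30 for the male pair of day 1, 6.52 for the female pair of day 4, 6.07 for the male pair of day 7 and 6.14 for that of day 14. It was 6.46 without the male pairs of days 4, 7 and 14 together and 2.27 on log2(TPM + 1), and it was called in each of these fits. The non-injured mean was 1.07 CPM, and 0.202 CPM without the day 7 male library.

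Of the paralogs known from brain, Atp6v1g2 fell and Atp6v0e2 was not called. Atp6v1g2, a stalk subunit, had 3.81 to 23.4 CPM (median 7.50) in injured and 6.21 to 260 CPM (median 30.1) in non-injured libraries. In 7 of 8 pairs the wound side was lower (log2 -2.06, SE 0.44, adjusted p = 0.0133). Its 3 highest values were the non-injured male libraries of days 4, 7 and 14, at 260, 115 and 64.2 CPM, which also held the most neuronal marker RNA, at 2079, 616 and 486 CPM for the sum of 8 markers. In the other 5 non-injured libraries the sum was 40.2 to 155 CPM, and in injured libraries it was 8.29 to 111 CPM. The sum of 8 oligodendrocyte markers was highest in the day 4 male non-injured library (4464 CPM) and next in the day 1 female non-injured one (3476 CPM). The 3 non-injured male libraries of days 4, 7 and 14 also held the highest sums of 6 astrocyte markers, at 3467, 1824 and 1207 CPM, against at most 878 CPM elsewhere. Without those 3 pairs, an alternative chosen after seeing the data, the effect was -0.97 (adjusted p = 0.0722). It was not called without either day 1 pair (0.117 female, 0.0773 male) or the day 7 male pair (0.0729), and without the day 4 male library the non-injured mean was 38.5 rather than 66.2 CPM. An exon of Atp6v1g2 overlaps Nfkbil1 on the opposite strand. Atp6v0e2, a small membrane subunit, had 3.99 to 29.2 CPM in injured and 0.781 to 155 CPM in non-injured libraries (log2 -1.16, SE 0.58, adjusted p = 0.226). Its value was called lower on log2 TPM (-1.45, adjusted p = 0.0267) and when the female pair of day 14 was dropped (-1.73, adjusted p = 0.0206). It was -0.15 (adjusted p = 1) when the male pair of day 14 was dropped, and 0.46 without the 3 pairs. The part of neuronal, astrocyte or oligodendrocyte RNA in either value was not tested.

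**Figure D3:**
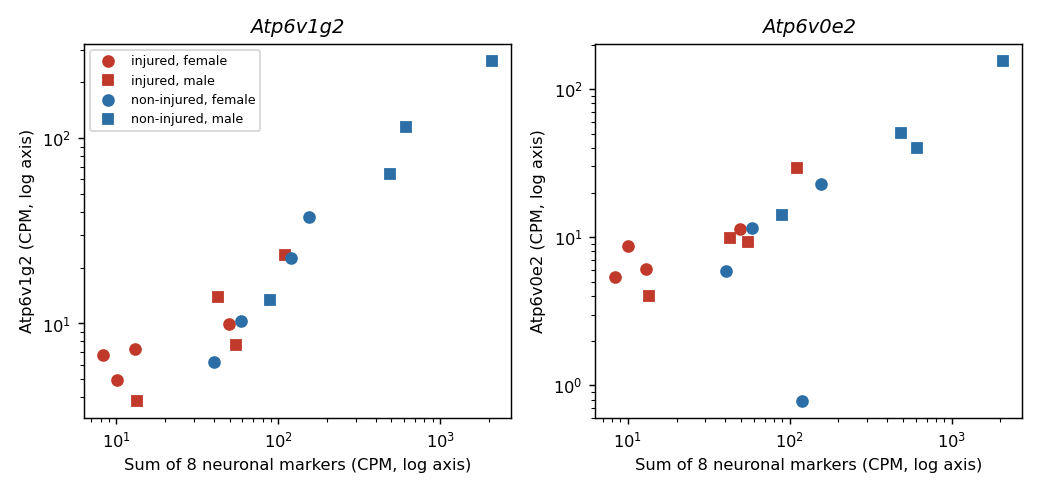
CPM of Atp6v1g2 (left) and Atp6v0e2 (right) in each of the 16 libraries against the summed CPM of 8 neuronal markers, both axes logarithmic, red for injured and blue for non-injured libraries. The non-injured male libraries of days 4, 7 and 14 lie at the top right, with 260, 115 and 64.2 CPM of Atp6v1g2.

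The accessory proteins rose. Atp6ap2, which helps assemble the pump and also binds prorenin, had 192 to 519 CPM (median 425) in injured and 96.0 to 450 CPM (median 210) in non-injured libraries. It was higher in 8 of 8 pairs (log2 0.93, SE 0.18, adjusted p = 0.00882), though the day 14 female pair was nearly equal, at 483 and 450 CPM, and the adjusted p was 0.0704 without the day 1 female pair. Atp6ap1, which guides V0 assembly, had 442 to 1073 CPM (median 715) in injured and 235 to 876 CPM (median 494) in non-injured libraries (log2 0.56, SE 0.15, adjusted p = 0.0322), and lost its call when any pair but the day 4 female one was left out (0.0799 to 0.136).

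Of the channels and exchangers 4 of 7 rose and 1 fell. Clcn7, the chloride-proton exchanger of lysosomes, had 21.2 to 254 CPM (median 104) in injured and 20.2 to 130 CPM (median 56.8) in non-injured libraries. All 8 pairs were higher at the wound, the day 14 female pair by the least, with 21.2 and 20.2 CPM (log2 0.79, SE 0.20, adjusted p = 0.0273; 0.084 to 0.148 without either day 1 pair, either day 7 pair or the day 14 male pair). Ostm1, its obligate partner, had 49.2 to 204 CPM (median 176) in injured and 56.9 to 141 CPM (median 87.1) in non-injured libraries. It was higher in 7 of 8 pairs and lower in the day 1 male pair, at 49.2 and 66.1 CPM (log2 0.64, SE 0.18, adjusted p = 0.0381; 0.0817 to 0.183 without any pair but the day 4 female one). An antisense gene overlaps it.

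Of the TRPML channels, Mcoln2 and Mcoln3 rose and Mcoln1 was not called. Mcoln1, the broadly expressed lysosomal calcium channel, had 23.1 to 166 CPM (median 86.6) in injured and 27.3 to 117 CPM (median 68.2) in non-injured libraries and was not called (log2 0.36, SE 0.21, adjusted p = 0.315; -0.24 on log2 TPM). Mcoln3, a paralog found in fewer tissues, had 0 and 0.418 CPM in the female and male injured libraries of day 1, against 0 in both non-injured ones. On day 4 it had 6.84 and 6.06 CPM in injured libraries, against 0.123 and 0.0775 CPM in non-injured libraries. On day 7 its injured libraries held its highest levels, 57.0 and 74.3 CPM, against 0.146 and 3.71 CPM in non-injured libraries. On day 14 it had 14.5 and 31.5 CPM in injured libraries, against 0.0822 and 4.05 CPM in non-injured libraries. All 6 injured libraries of days 4, 7 and 14 exceeded every non-injured library. The fitted mean effect was log2 5.20 (SE 1.12, adjusted p = 0.0129), and it was 3.81 and not called (adjusted p = 1) without the day 1 male pair, where 17 injured reads stood against 0. Without either day 4 pair the adjusted p was 0.0543 or 0.0544. Without the day 7 male pair the effect was 6.01 and without the day 14 male pair 6.15, and it was 7.02 without the male pairs of days 4, 7 and 14 together. Mcoln2 had 0 to 15.4 CPM (median 3.82) in injured and 0 to 3.03 CPM (median 0.649) in non-injured libraries (log2 2.14, SE 0.63, adjusted p = 0.0491). That value was 0.03 (adjusted p = 1) without the day 1 male pair, and among the fits that each left out a pair the call held only when the female pair of that day was dropped (2.74, adjusted p = 0.0369).

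Of the two-pore channels, endolysosomal cation channels, Tpcn1 fell and Tpcn2 was not called. Tpcn1 had 10.8 to 47.4 CPM (median 22.9) in injured and 10.1 to 86.6 CPM (median 58.2) in non-injured libraries. It was lower in 6 of 8 pairs (log2 -0.96, SE 0.22, adjusted p = 0.017; 0.0509 to 0.114 without either day 1 pair, either day 7 pair or the day 14 male pair). The difference was widest on day 1, at 13.3 and 13.8 CPM in injured libraries, against 74.4 and 61.8 CPM in non-injured libraries. Tpcn2 had 0.236 to 82.5 CPM (median 41.3) in injured and 4.44 to 22.3 CPM (median 13.8) in non-injured libraries and was not called (log2 1.22, SE 0.39, adjusted p = 0.0633). It was higher in 7 of 8 pairs, and 6 injured libraries exceeded every non-injured one. In the day 14 female pair the injured library held 6 reads, and without that pair the effect was 1.56 and called (adjusted p = 0.00803). Dropping the male pair of the same day instead gave 0.22 (adjusted p = 1), and dropping the male pairs of days 4, 7 and 14 together gave 0.27 (adjusted p = 1). It was also called when the male pair of day 4 was dropped (adjusted p = 0.033) and in no other fit that left out a single pair.

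Among the transcription factors Mitf rose, and Tfeb and Tfe3 were not called. Mitf had 13.5 to 65.8 CPM (median 25.5) in injured and 4.78 to 21.7 CPM (median 13.6) in non-injured libraries. It was higher in 7 of 8 pairs and lower in the day 1 male pair, at 17.5 and 19.5 CPM (log2 1.21, SE 0.23, adjusted p = 0.00775; 0.0676 without the day 1 female pair; not called on log2 TPM, at 0.48). Tfeb had 2.59 to 27.5 CPM in injured and 3.49 to 20.3 CPM in non-injured libraries (log2 -0.11, SE 0.23, adjusted p = 0.905). Tfe3 had 20.6 to 269 CPM in injured and 29.9 to 333 CPM in non-injured libraries (log2 -0.20, SE 0.17, adjusted p = 0.536). Neither showed a difference beyond the spread between pairs in this test, although Tfe3 was called lower on log2 TPM, at -0.70 (adjusted p = 0.0363). These are RNA levels, and the activity of such factors also depends on phosphorylation and transport to the nucleus, which were not measured.

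The lysosome-associated membrane proteins, which coat the lysosome's inner face, both rose. Lamp1 had 716 to 4146 CPM (median 1741) in injured and 313 to 1064 CPM (median 902) in non-injured libraries. On day 1 both injured libraries lay below their partners, at 804 and 716 CPM, against 891 and 1014 CPM. On days 4, 7 and 14 every pair was higher at the wound, up to 3872 CPM in the injured and 665 CPM in the non-injured library of the day 7 female pair (mean log2 1.14, SE 0.18, adjusted p = 0.00333; 0.65 on log2 TPM, adjusted p = 0.102). An exon of Lamp1 overlaps Grtp1 on the opposite strand. Lamp2 had 224 to 1223 CPM (median 740) in injured and 157 to 623 CPM (median 406) in non-injured libraries and was higher in 7 of 8 pairs, the day 1 male pair excepted (log2 0.80, SE 0.18, adjusted p = 0.0171). It was not called without the day 1 female pair, either day 7 pair or the day 14 male pair (0.0703 to 0.0941).

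**Figure D4:**
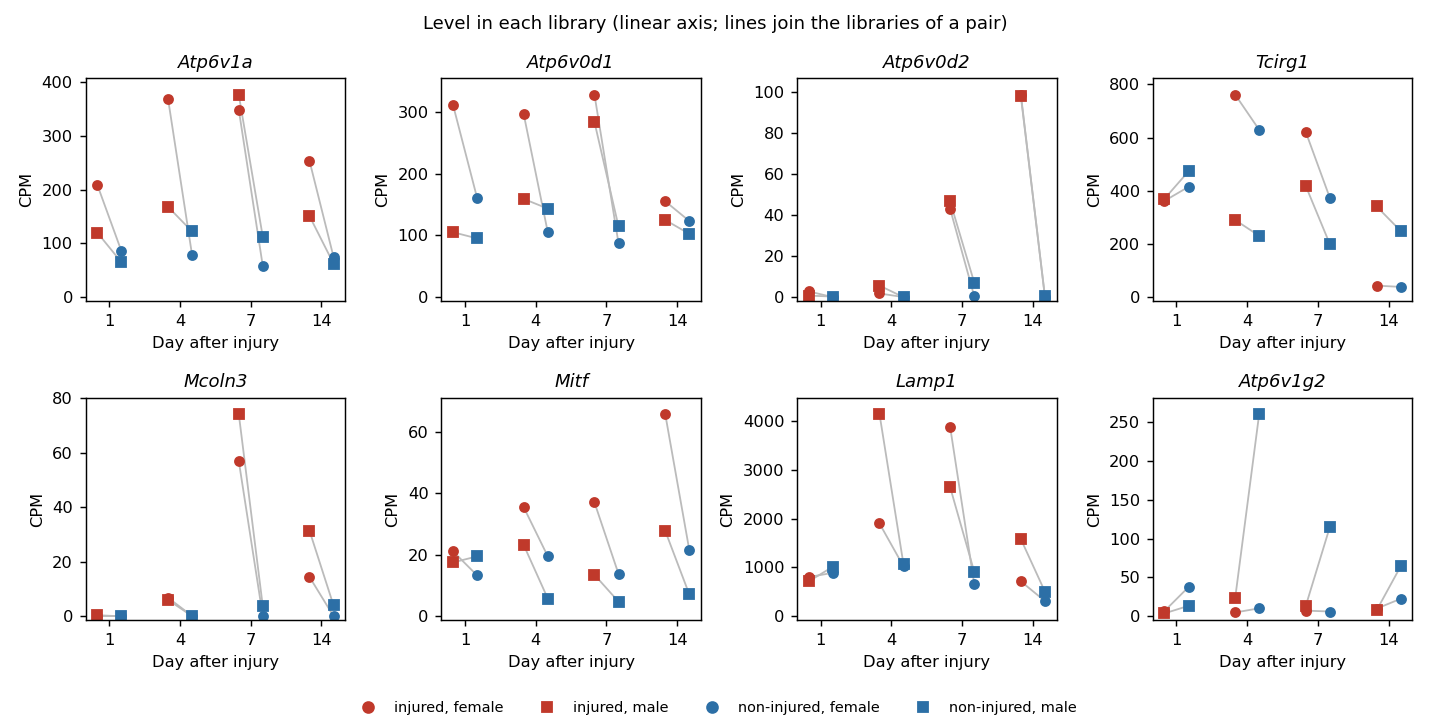
CPM of 8 members in each library by day, injured libraries (red) left of non-injured libraries (blue), circles for females and squares for males, lines joining a pair, each panel on its own linear axis. Atp6v0d2 climbs to 98.6 and 97.7 CPM at the wound on day 14, Mcoln3 peaks on day 7, and Lamp1 separates the sides from day 4 on.

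Single days had 2 pairs each and gave few calls. On day 1, Tpcn1 fell (log2 -2.32, SE 0.44, adjusted p = 0.0481), 1 of 32 members against 1.05% of genes (0.472% higher, 0.58% lower). On day 4, Atp6v0e rose (log2 2.19, SE 0.38, adjusted p = 0.0298), 1 of 32 against 2.04% (1.52% higher, 0.521% lower). On day 7, Mcoln3 rose (log2 5.38, SE 0.84, adjusted p = 0.0433), 1 of 32 against 0.374% (0.318% higher, 0.0559% lower). On day 14, Atp6v0d2 rose (log2 8.49, SE 1.13, adjusted p = 0.0388), 1 of 32 against 0.0594% (0.0455% higher, 0.014% lower). At an unadjusted p under 0.05 the members' counts were 7, 19, 25 and 11 on the 4 days, against 15.4%, 14.8%, 19.1% and 16.5% of genes. Each of these 4 calls was lost without a filter on low counts and when either day 1 pair, either day 7 pair or the day 14 female pair was left out (adjusted p 0.0508 to 0.693), that of Atp6v0e also without the day 4 male pair and that of Atp6v0d2 without the day 14 male pair. The sizes rested on single pairs as well. Mcoln3 on day 7 was at 4.31 with the female and 8.62 with the male pair of that day dropped, Atp6v0d2 on day 14 at 7.74 and 11.1, Atp6v0e on day 4 at 2.81 and 1.70, and Tpcn1 on day 1 at -2.17 and -2.49. On log2(TPM + 1) the Atp6v0e call was lost too (limma, adjusted p = 0.0719). DESeq2 called 4, 12, 10 and 9 members on days 1, 4, 7 and 14, against 2481, 1899, 2188 and 2148 of the 28597 genes. On those days 6, 10, 10 and 6 members rose and 1, 2, 1 and 1 fell in the authors' deposited tables, at the authors' adjusted p under 0.05. The share of all genes called in those tables was not counted, so these counts cannot be set beside the fits above.

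Median effects of the members were largest on day 7, as a description. The median log2 change of the 32 members was 0.38, 1.02, 1.20 and 0.43 on days 1, 4, 7 and 14, and that of the 16 widely expressed subunits was 0.72, 1.04, 1.23 and 0.52. The medians of all genes were -0.05, -0.20, -0.84 and 0. The lysosomal membrane proteins and Mcoln1 had values below 0 on day 1 (Lamp1 -0.32, Lamp2 -0.29, Mcoln1 -0.64) and above 0 on day 7 (Lamp1 2.04, Lamp2 1.20, Mcoln1 1.18), whereas the 16 subunits had a median above 0 on every day. No member passed the test of a difference between days (0 of 32, edgeR; 0% of all genes), with 3 at an unadjusted p under 0.05 (Lamp1 0.00599, Tpcn1 0.028, Lamp2 0.0369), against 6.36% of genes. DESeq2 called 0 members as well, so the time courses above are descriptions. The sex difference of the injury effect was not called for any member either in edgeR (0 of 32; 0% of all genes). DESeq2 called it for 0 members, against 152 of the 28597 genes. In edgeR 7 members had an unadjusted p under 0.05, against 7.32% of genes. The smallest p, 0.00827 (adjusted p = 0.517), was that of Atp6v0d2, whose fitted log2 effect was 3.45 higher in females than in males.

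Because TPM is scaled by gene length, paralogs can be set against each other as shares of their summed TPM. Of 8 such shares, 7 differed between sides (exact two-sided sign-flip test over 8 pairs, adjusted over the 8 shares; the smallest p possible is 0.00781). Among the d subunits Atp6v0d2 took 9.66% ± 12.2 (SD, n = 8) in injured libraries and 0.775% ± 1.32 in non-injured libraries, reaching 24.5% and 32.1% in the day 14 injured libraries (exact p = 0.00781, adjusted 0.0208). Among the a subunits Tcirg1 took 71.0% ± 7.60 in injured and 62.4% ± 5.26 in non-injured libraries, higher in 7 of 8 pairs (exact p = 0.0234, adjusted 0.0313). It was the most abundant a subunit in every library on both sides. Mean TPM was lower in injured than in non-injured libraries for Tcirg1 (261 and 356), Atp6v0a1 (56.0 and 85.3) and Atp6v0a2 (50.3 and 111).

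The paralogs known from brain had lower shares at the wound. Atp6v1g2 took 2.07% ± 1.18 of the G subunits in injured and 20.98% ± 21.8 in non-injured libraries, lower in 8 of 8 pairs (exact p = 0.00781, adjusted 0.0208). Atp6v0e2 took 1.64% ± 0.902 of the e subunits in injured and 12.9% ± 14.9 in non-injured libraries (exact p = 0.0156, adjusted 0.025). In both the highest non-injured share was the day 4 male library, at 62.6% and 46.0%, the library with the most neuronal, astrocyte and oligodendrocyte marker RNA.

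Among the channels Mcoln1 held 80.0% ± 16.2 of TRPML transcripts in injured and 95.9% ± 4.99 in non-injured libraries, lower in 7 of 8 pairs (exact p = 0.0156, adjusted 0.025). Tpcn2 held 51.3% ± 22.9 of the two-pore channels in injured and 22.6% ± 11.5 in non-injured libraries, higher in 7 of 8 pairs (exact p = 0.0391, adjusted 0.0446). Mitf took 16.5% ± 14.7 of the 3 factors in injured and 6.96% ± 4.11 in non-injured libraries, higher in 8 of 8 pairs (exact p = 0.00781, adjusted 0.0208), with 52.4% in the day 14 female injured library and 8.07% to 15.8% in the other injured libraries. Lamp1 held 73.8% ± 12.1 of the pair of LAMP proteins in injured and 70.4% ± 12.2 in non-injured libraries, a difference of 3.39 points that was within the spread between pairs (exact p = 0.195, adjusted 0.195). The shares of Tcirg1, Atp6v0e2, Mcoln1 and Tpcn2 no longer passed at an adjusted p under 0.05 without the day 1 male pair, nor that of Tpcn2 without the day 1 female pair (0.0893).

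**Figure D5:**
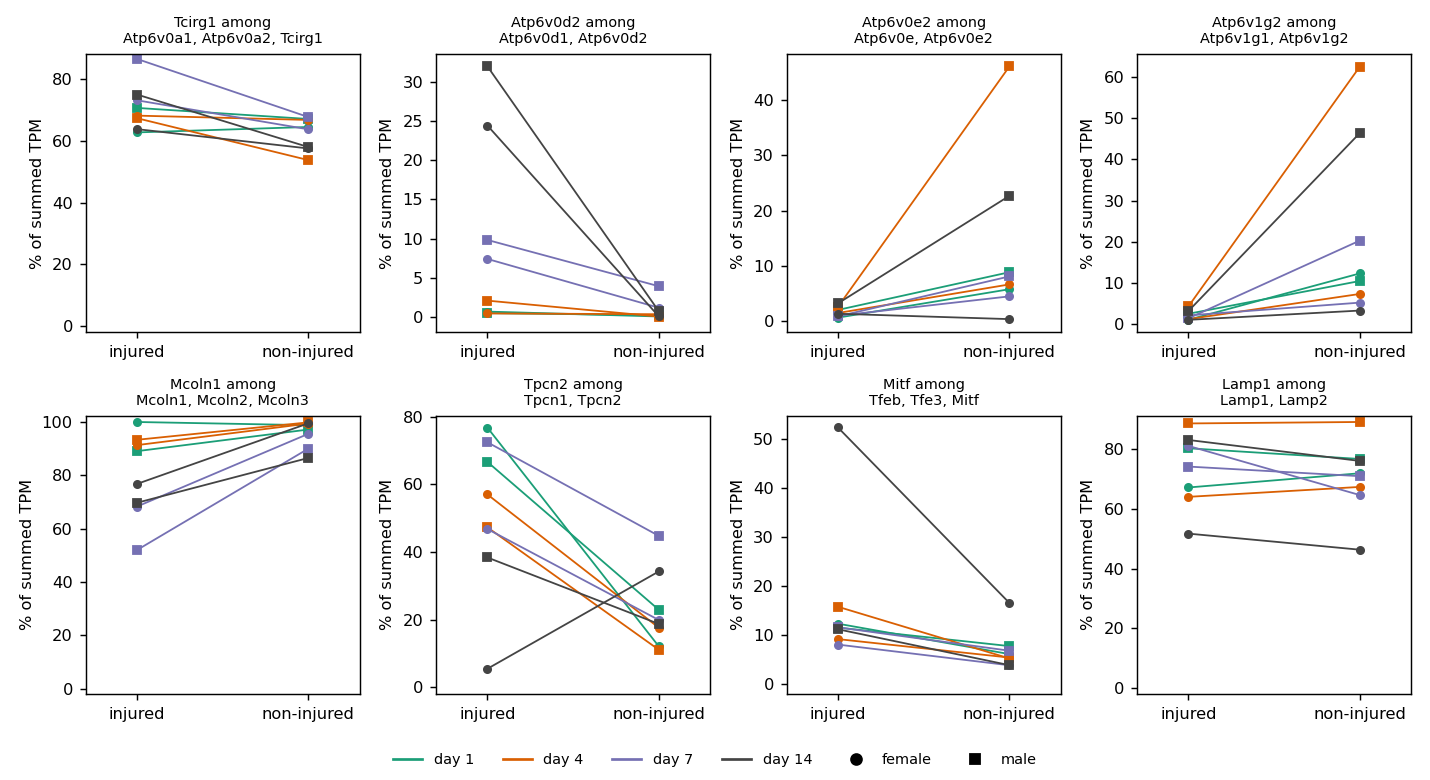
Share of each paralog in the summed TPM of its family, injured left and non-injured right, a line for each of the 8 pairs coloured by day, circles for females and squares for males. Atp6v0d2 reaches 24.5% and 32.1% in the day 14 injured libraries, and Atp6v1g2 and Atp6v0e2 reach 62.6% and 46.0% in the day 4 male non-injured library.

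Other genes of the pathway were examined as lists, beside 7.76% of all genes called higher and 7.96% called lower, or 15.7% in all. Of 18 nutrient-sensing genes that work at the lysosome, 8 rose and 1 fell (median log2 0.68). The 5 subunits of the Ragulator scaffold, which the pump contacts, all rose, between 0.85 for Lamtor3 and 1.09 for Lamtor5, as did Fnip2 (1.64), Rragc (0.86) and Rheb (0.78), while Rptor, the mTORC1 scaffold, fell (-1.35). Of 11 tested genes of pump assembly and regulation, 2 rose, Dmxl2 (1.10) and Ccdc115 (0.80), and Rogdi fell (-1.14). Of 21 other lysosomal transport genes, 3 rose, P2rx4 (1.60), Slc11a1 (1.05) and Cln3 (0.79), and 2 fell, Slc29a3 (-0.72) and Tmem63a (-0.67), with a median of -0.12. Of 12 regulators related to the transcription factors, Tfec, another member of the MITF family, rose (2.15) and the calcineurin subunit Ppp3ca fell (-0.86), a share close to that over all genes. Of 12 other lysosomal membrane genes 5 rose, Gpnmb (6.42), Cd63 (2.72), Cd68 (1.29), Tmem192 (1.01) and Scarb2 (0.69), and Lamp5 fell (-4.26). Of the pump paralogs typical of kidney and other tissues, 2 of 5 passed the filter on low counts, at mean levels under 1 CPM, and neither was called. Of 7 tested osteoclast markers, Acp5 (5.42), Mmp9 (4.22) and Ctsk (2.80) rose and Nfatc1 fell (-0.72).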

How the data were processed

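Polyadenylated RNA of sorted cells was made into cDNA with SMART-Seq v4 and libraries with Nextera XT, per the labels' protocols, which do not keep the strand. Salmon 1.0.0 and DESeq2 1.26.0 are named in the submitters' processing notes. The sources used here do not give the genome build or annotation. The authors deposited expected counts (estimated reads per gene, not normalized) and TPM for 32 columns, and comparison tables with log2 fold changes and p-values, used only where named. Coordinates of overlaps came from GENCODE M21, which held 54487 of 55385 IDs and all 32 members.

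The 2 columns of each day, sex and side were summed and rounded. The quasi-likelihood test of edgeR 4.0.16 (R 4.3.3) was run on TMM-normalized counts of the 28597 genes that passed filterByExpr at a minimum count of 10. Its terms were the 8 pairs and an injury effect for each of 4 days (4 residual degrees of freedom), and a sex term where sexes were compared (3). Each standard error is the size of the log2 change divided by the square root of its F statistic. CPM uses TMM-scaled library sizes. Genes were called at an adjusted p under 0.05 over all genes tested. TPM was averaged over the 2 columns for shares. Alternatives were median-ratio factors, no filter, DESeq2 1.42.0, limma 3.58.1 on log2(TPM + 1), 32 separate columns with a replicate block, each replicate column alone, each pair left out and, chosen after seeing the data, the male pairs of days 4, 7 and 14 left out. The edgeR fit was tested on simulated counts with the same dispersion for all genes and the same injury effect in every pair. That setting lacks the differences in genes detected and neuronal RNA between these libraries, so it does not show how the fit behaves here. Named genes were all members, plus called genes of listed pathways. Members and lists were chosen with earlier results of these data known.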

Additional observations from a re-analysis of the deposited data

Results flagged for a closer look

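Of the pair log2 ratios of 32 members (injured over non-injured, 1 CPM added), 2 had a pair far from the other 7, where chance flags about 1 in 20 such groups. Both were in the day 14 female pair, whose libraries detected the fewest genes. Atp6v0e2 had its highest ratio there, 2.79, against 0.04 for the next pair, from 11.3 CPM in the injured and 0.781 CPM in the non-injured library. Tpcn2 had its lowest ratio there, -2.14, against 0.87 for the next pair, from 0.236 CPM in the injured and 4.44 CPM in the non-injured library. Without that pair Atp6v0e2 was called lower (log2 -1.73, adjusted p = 0.0206) and Tpcn2 higher (1.56, adjusted p = 0.00803). When the male pair of that day was dropped instead, Atp6v0e2 was at -0.15 and Tpcn2 at 0.22 (adjusted p = 1 for each). The part of low library complexity in these ratios was not tested.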

How the results depend on the processing

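The count of 22 members called over the 4 days was 20 with median-ratio factors, 21 without a filter, 22 with DESeq2, 20 with either replicate column alone and 13 with limma on log2 TPM, and ran from 9 to 21 as each pair was left out. Across the 28597 genes tested, 4496 were called in the main test, 4763 with median-ratio factors, 6518 with DESeq2 and 4371 with limma. For the other alternatives, 32 separate columns included, no share of all genes is given. Their counts of members therefore lack that comparison. With the 32 columns kept as separate samples and a replicate block, 32 members were called over the 4 days, 23, 29, 28 and 22 on days 1, 4, 7 and 14, 24 between days and 15 between the sexes. That fit takes the spread between columns, close to counting noise, for the spread between samples. Replicate numbers could not be shown to pair samples, since the columns of a group hardly differ. The single-day counts of 1, 1, 1 and 1 became 0 on every day without a filter and 4, 12, 10 and 9 with DESeq2. DESeq2 called 2481, 1899, 2188 and 2148 of the 28597 genes on those days. With limma the members' counts were 0 on day 4 and 2 on day 7, against 319 and 179 of all genes. With either replicate column alone 2 members were called on day 4. As each pair was left out the members' counts ran from 0 to 1 on day 1, 0 to 2 on day 4, 0 to 7 on day 7 and 0 to 1 on day 14. The cause of these shifts was not tested, apart from the fewer samples and different gene sets that the alternatives hold.

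Directions reversed for 5 uncalled members: Tcirg1 (-0.34) and Mcoln1 (-0.24) on log2 TPM, and Atp6v0a1 (0.10), Atp6v0e2 (0.46) and Tfeb (0.034) without the male pairs of days 4, 7 and 14. No called member reversed in any alternative run. The median over all genes was -0.44 with median-ratio factors and -0.17 on log2 TPM, against -0.32, and the members' median was 0.67 and 0.32, against 0.81. As each pair was left out, the difference in share, in percentage points, ran from 7.08 to 10.02 for Tcirg1, 5.67 to 10.1 for Atp6v0d2, -13.0 to -6.62 for Atp6v0e2, -21.3 to -13.3 for Atp6v1g2, -18.2 to -12.6 for Mcoln1, 23.6 to 36.9 for Tpcn2, 5.80 to 10.38 for Mitf and 1.52 to 4.55 for Lamp1. With 1 library for each day, sex and side, single days rest on 2 pairs, and members with a few reads on the non-injured side (Atp6v0d2, Mcoln2, Mcoln3) have folds of low precision.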

Other observations

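Ordered by median TPM in injured libraries, a level scaled by gene length, the most abundant members were Atp6v0c (1215 TPM in injured and 930 TPM in non-injured libraries), Lamp1 (1004 and 705 TPM), Atp6v0b (657 and 606 TPM), Atp6v0e (456 and 230 TPM), Atp6v1f (454 and 222 TPM) and Atp6ap1 (444 and 456 TPM). The least abundant were Mcoln2 (4.07 TPM in injured and 1.54 TPM in non-injured libraries), Mcoln3 (5.35 and 0.164 TPM), Atp6v0e2 (6.01 and 21.5 TPM) and Atp6v1g2 (7.82 and 33.4 TPM). The catalytic subunit Atp6v1a, at 69.3 TPM in injured and 38.8 TPM in non-injured libraries, lay well below its ring partner Atp6v1b2, at 201 and 125 TPM. The order of close neighbours was not tested.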
